A study of Mus musculus with 24 samples.

Results

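Gene expression was compared between BURP-16SR and BURP-19NE, a stroma-rich and a neuroendocrine-like (NE-like) tumor line of the mouse bladder. The subtypes are not a clean contrast. The authors matched most tumors of the stroma-rich line to that class but the rest to the NE-like class, and describe the line as stroma-rich/NE-like. Their text does not say which tumors were matched to the NE-like class. The tumors compared here were chosen by their sample labels, which give the line, and not by any measured value. The labels BBN016 and BBN019 gave 3 tumors of each line, 6 of the 24 tumors in the series. The other 18 tumors belong to 6 basal/squamous (Ba/Sq) lines and are used only to place a few levels. Both lines were made in the same way, from a male C57BL/6NTac mouse that drank 0.1% of the bladder carcinogen BBN from 8 weeks of age for up to 36 weeks. The bladder tumor was then passaged under the skin of male hosts of the same strain. Each line therefore descends from 1 donor tumor, so that a difference between the lines is also a difference between 2 single tumors of origin. BURP-16SR was sampled as the tumors labelled C73-M10, C74-MNT and P5, and BURP-19NE as C80-M1, C80-M3 and C80-M30. The 3 tumors of BURP-19NE share the number C80, whereas those of BURP-16SR carry different numbers or a passage number, and no batch is labelled. The tumors of a line were independent tumors taken at early passages, once the line was established, and the p-values measure only the spread between such tumors of 1 line. Whether any of the tumors came from a treated mouse is not stated.

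In bladder cancer, stroma-rich tumors carry a strong signal of smooth muscle cells, endothelial cells, fibroblasts and the collagen-rich matrix that these cells lay down. NE-like tumors are poorly differentiated and take on a program of nerve and endocrine cells, classically driven by transcription factors such as Neurod1 and Insm1 and seen in the proteins of secretory granules and synaptic vesicles. The tumors were sequenced whole, so that fewer cells of a type and less RNA per cell cannot be told apart in any value that follows.

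Total RNA was sequenced after depletion of ribosomal RNA, and the deposited values are estimated counts per gene. The 3 BURP-16SR tumors had 14039094 to 14144297 counts and the 3 BURP-19NE tumors 16482941 to 20702009. Levels are given in CPM after TMM scaling, in the order C73-M10, C74-MNT and P5 for BURP-16SR and C80-M1, C80-M3 and C80-M30 for BURP-19NE. A floor of 3 counts corresponds to 0.128 to 0.282 CPM in a library, which covers counting error only. The noncoding RNA Gm26917 took 9.50% to 15.8% of the counts in BURP-16SR and 5.62% to 6.58% in BURP-19NE. The TMM factors of the groups did not overlap either, at 0.76 to 0.98 and 1.14 to 1.24, and the part of Gm26917 in the results was not tested. Tumors of BURP-19NE were more alike than those of BURP-16SR. Across genes, which are not independent replicates, Pearson's r of log2 CPM was 0.979 to 0.983 within BURP-19NE, 0.894 to 0.962 within BURP-16SR and 0.813 to 0.848 between the lines. P5 was the tumor furthest from the others of its line, low in fibroblast, macrophage and lymphocyte genes, as described with each of these groups. Markers of skeletal muscle summed to 901 CPM in C80-M1 and 274 CPM in C74-MNT but to 14.3 to 45.9 CPM in the other 4 tumors. In no pair of tumors of 1 line did the counts agree within sampling noise, since the lowest chi-square per degree of freedom was 24.

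The genes of the proteins used to describe such tumors by staining were examined first. Krt5, the basal keratin, had 0.376, 0 and 0 CPM in BURP-16SR and 0.0425, 0 and 0 CPM in BURP-19NE, too low to be tested. Trp63, the basal transcription factor p63, was likewise too low, with 0.188, 0.256 and 0 CPM against 0.553, 0.161 and 0.416 CPM. Krt14, the partner of Krt5, was also too low, at 0.282, 0 and 0 CPM against 0.468, 0.482 and 0.323 CPM, which lay above the floor in all 3 BURP-19NE tumors. Vim, the intermediate filament of mesenchymal cells, stood at 1740, 1612 and 1495 CPM in BURP-16SR and at 642, 684 and 687 CPM in BURP-19NE. It was 2.41-fold higher in BURP-16SR (log2 fold change 1.27 ± 0.16 SE, adjusted p = 0.00235), although the call was not made when all 24 tumors were fitted together. Gata3, a transcription factor of the urothelium, was at 51.3, 33.9 and 66.3 CPM against 112, 122 and 119 CPM and was lower in BURP-16SR (log2 fold change -1.22 ± 0.24 SE, adjusted p = 0.0110). The groups did not overlap for either gene. Foxa1, its partner in urothelial differentiation, had 34.2, 20.1 and 37.7 CPM against 50.2, 70.3 and 40.7 CPM and did not pass the test (adjusted p = 0.0793). Syp, the synaptic vesicle protein synaptophysin, reached at most 0.942 CPM in BURP-16SR and 0.554 CPM in BURP-19NE, with overlapping groups (adjusted p = 0.182).

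Of the NE factors, St18, a zinc finger factor of nerve and endocrine cells, was higher in BURP-19NE at a low level, with 3 counts in BURP-16SR and 0.851, 0.803 and 2.13 CPM in BURP-19NE, a ratio of 15.9 with a 95% counting interval of 5.24 to 78.4. Its adjusted p of 0.0284 rose to between 0.0663 and 0.0993 without C73-M10, C80-M1, C80-M3 or C80-M30.

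Other NE factors went the opposite way. Prox1, a homeobox factor of nerve and lymphatic cells, was at 10.2, 10.1 and 22.6 CPM in BURP-16SR against 0.213, 0 and 0 CPM (adjusted p = 0.00287). Foxa2, a factor of endoderm and of NE tumors, was at 18.1, 26.2 and 64.2 CPM against 3.87, 3.69 and 5.68 CPM (adjusted p = 0.00648). Both were higher in all 3 BURP-16SR tumors. Neurod1 had no count in any of the 6 tumors, and Insm1 had none in BURP-19NE and 0.470, 0.171 and 3.11 CPM in BURP-16SR. Of the 16 NE transcription factors listed, 5 were expressed highly enough for a test. BURP-16SR was the higher line for 2 of them and the lower line for 2.

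The genes of secretory granules and synaptic vesicles did not mark BURP-19NE. Of 32 such genes, 17 were tested, and 8 (47.1%) were higher in BURP-16SR and 1 (5.88%) was lower, beside 14.8% and 8.86% of all tested genes. Their median log2 fold change was 0.87 beside 0.06 over all tested genes. Snap25, which fuses vesicles with the membrane, stood at 22.3, 5.81 and 27.0 CPM in BURP-16SR and had 1 count in the 3 BURP-19NE tumors together (ratio 599, 95% counting interval 165.1 to 4953, adjusted p = 0.00154). Cpe, the carboxypeptidase that trims prohormones, was at 491, 318 and 877 CPM against 116, 155 and 85.6 CPM (adjusted p = 0.00861). Eno2, the neuron-specific enolase, was at 13.2, 10.7 and 27.2 CPM against 1.999, 3.53 and 2.68 CPM (adjusted p = 0.00602). No value of these 3 genes in BURP-19NE reached the lowest one in BURP-16SR. Syt1, the calcium sensor of vesicle release, was the member that was lower in BURP-16SR, with 2 counts there and 1.91, 1.39 and 3.28 CPM in BURP-19NE (ratio 40.8, 95% counting interval 11.1 to 340). Chga, the granule protein chromogranin A, was at 16.2 CPM in C74-MNT and at most 0.846 CPM in the others, and was not tested. Ncam1, the cell adhesion protein CD56, stood at 362, 326 and 250 CPM in BURP-19NE against 13.6, 88.5 and 1.96 CPM in BURP-16SR. Its groups did not overlap, but the spread within BURP-16SR left it short of the threshold (log2 fold change -3.17 ± 1.16 SE, adjusted p = 0.0755). The count of 8 granule genes fell to 4 without C80-M1 or C80-M30, and the count of 1 rose to 3 without C74-MNT or P5.

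Across all 17556 genes with enough counts, the test called 2592 (14.8%) as higher and 1555 (8.86%) as lower in BURP-16SR, with 0.05 as the limit for the adjusted p and a log2 fold change of 1 as the least size. The counts of called members of each list, above and below, are to be read beside these shares. The changes upwards were larger, with 1611 of the higher and 551 of the lower genes differing 4-fold or more. Of the higher genes 2096 were protein-coding, and of the lower ones 1040. The groups of 3 tumors did not overlap for 4072 of the 4147 called genes, and for 9017 (51.4%) of all those tested. No count was seen in BURP-19NE for 46 of the higher genes and none in BURP-16SR for 39 of the lower ones. In every fit that left out 1 tumor, 1432 of the higher and 869 of the lower genes were called again. The lowest BURP-16SR value of the higher genes was found in P5 for 1065 of them, in C74-MNT for 946 and in C73-M10 for 581.

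**Figure D1:**
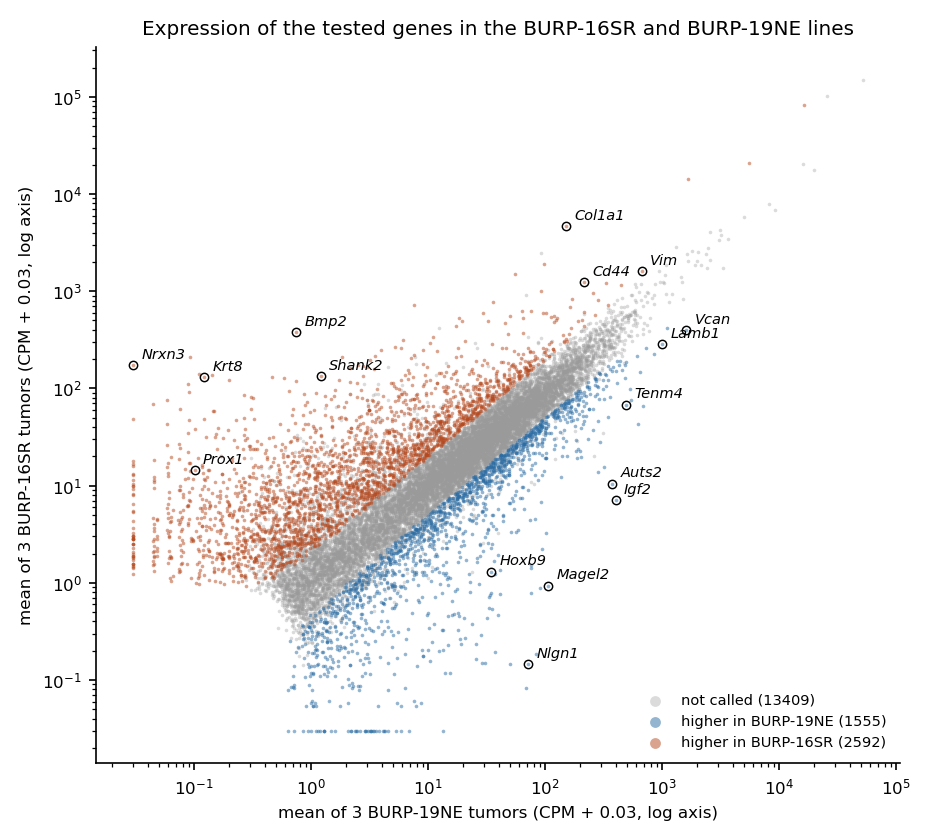
Mean expression of the 17556 tested genes in the 3 BURP-19NE tumors (horizontal) and the 3 BURP-16SR tumors (vertical), in CPM plus 0.03 on log axes. Points are genes, with 2592 higher in BURP-16SR in orange, 1555 higher in BURP-19NE in blue and the others in grey, and the circled genes are named in the text. Genes without counts in one line lie along the left or lower edge, such as Nrxn3.

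The largest changes upwards were in genes of very different kinds. The genes named as largest or most abundant were taken only from called genes without overlap between the groups. Nrxn3 (chromosome 12, 88722876 to 90334935), a presynaptic adhesion protein, had 189, 154 and 179 CPM in BURP-16SR and no count in BURP-19NE, at least 1085-fold (adjusted p = 0.000400). Against the same floor, 1700012B09Rik was at least 302-fold, Krtap17-1, a hair keratin-associated protein, at least 111-fold, and Csf2, the cytokine GM-CSF, at least 62.0-fold higher. Hcar1, the lactate receptor, had 52.6, 38.6 and 115 CPM in BURP-16SR and 1 count in BURP-19NE (ratio 2291, 95% counting interval 634 to 18928). Cck, the gut and brain peptide cholecystokinin, had 103, 80.7 and 44.4 CPM against 2 counts (ratio 1171, 95% counting interval 457 to 4301). Unc13c, a priming factor of synaptic vesicles, was at 72.5, 93.1 and 171 CPM against 0.0851, 0 and 0.0924 CPM (adjusted p = 0.000441). None of these genes exceeded the floor in any tumor of BURP-19NE. The rule also named the keratins Krt8 and Krt27, described below, Gm43517 and Plcxd3, which were at least 100-fold and 82.2-fold higher, and Fam19a2, a brain chemokine-like gene. For Fam19a2, the adjusted p of 0.0256 rose to between 0.0502 and 0.0643 without C73-M10, C80-M1, C80-M3 or C80-M30.

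In the other direction, genes near or at 0 in BURP-16SR were clearly expressed in BURP-19NE. Nlgn1 (chromosome 3, 25426215 to 26332460), a postsynaptic partner of neurexins, had 0.0940, 0.256 and 0 CPM in BURP-16SR and 55.5, 115 and 43.1 CPM in BURP-19NE (adjusted p = 0.000901). Bves, a membrane protein of muscle and epithelia, had 2 counts in BURP-16SR against 87.4, 64.6 and 53.3 CPM (ratio 1251, 95% counting interval 346 to 10331). Rgs6, a regulator of G protein signaling in nerve and heart, had 0.376, 0.0854 and 0 CPM against 70.0, 95.2 and 85.2 CPM (adjusted p = 0.000615). In each of these genes every BURP-19NE tumor was far above the highest BURP-16SR value, and the rule required groups without overlap. Ano3, a scramblase of neurons, was at 41.8, 50.3 and 58.1 CPM in BURP-19NE and at most 0.188 CPM in BURP-16SR, and Zfp536, a neuronal zinc finger gene, at 38.6, 41.3 and 31.6 CPM against at most 0.256 CPM. Magel2, an imprinted regulator of protein sorting in the hypothalamus, was at 99.4, 149.1 and 70.9 CPM against 0.470, 0.939 and 1.304 CPM (adjusted p = 0.000617). All 3 genes had non-overlapping groups, as the rule required. The rule also named Lrguk, Muc15, Tmem132b, Fam19a1, Bex1 and Try5, with log2 fold changes of -7.94 to -7.39 and at most 0.362 CPM in any BURP-16SR tumor.

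**Figure D2:**
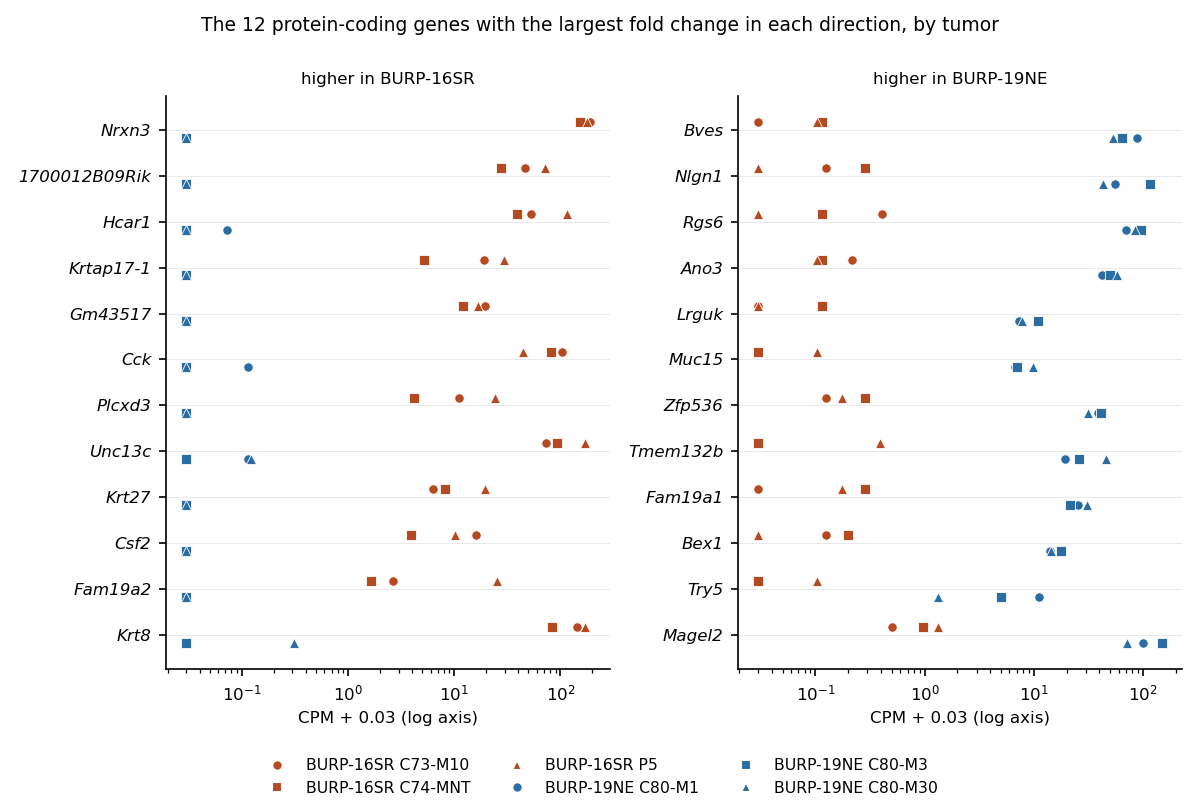
Expression of the 12 protein-coding genes with the largest fold change in each direction, in CPM plus 0.03 on a log axis, with 1 point per tumor. In the left panel the BURP-16SR tumors (orange) lie to the right and the BURP-19NE tumors (blue) at or near 0, and in the right panel the order is turned. Nrxn3 has 189, 154 and 179 CPM in BURP-16SR and 0 in BURP-19NE.

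Among abundant genes, the matrix protein tenascin C (Tnc) was at 1156, 2448 and 887 CPM in BURP-16SR against 71.1, 7.44 and 87.0 CPM (adjusted p = 0.0114). Igfbp4, which binds insulin-like growth factors, was at 1593, 1858 and 2274 CPM against 67.1, 132 and 93.1 CPM (adjusted p = 0.000736). Cd44, the hyaluronan receptor, was at 1186, 960 and 1553 CPM against 207, 207 and 225 CPM (adjusted p = 0.000945). These 3 genes were higher in every BURP-16SR tumor, which the rule for naming them required. The hydrolase Abhd2 was 3.65-fold higher. Abundant genes of BURP-19NE were Vcan, the matrix proteoglycan versican, at 1533, 1830 and 1439 CPM against 273, 459 and 462 CPM in BURP-16SR (adjusted p = 0.00263), and Lamb1, a laminin chain, at 963, 1204 and 810 CPM against 267, 327 and 263 CPM (adjusted p = 0.00189). Pcdh19, a protocadherin of the brain, was at 784, 647 and 642 CPM against 40.3, 58.6 and 97.4 CPM (adjusted p = 0.00146). The groups were again apart, as the rule required. The rule further named S100a6, the coactivator Zmiz1 and the pyrophosphate transporter Ank, which were 2.61-fold, 3.81-fold and 2.77-fold higher in BURP-19NE.

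Structural matrix genes were uneven within BURP-16SR. The 43 genes of fibrillar collagens and other structural matrix proteins summed to 21110, 46248 and 9717 CPM in BURP-16SR and to 14016, 11908 and 8345 CPM in BURP-19NE. P5 lay within the range of BURP-19NE, whereas C73-M10 and C74-MNT lay above it. All 43 were tested, and 15 were higher, 1 was lower and 27 were not called in BURP-16SR, with a median log2 fold change of 3.32 beside 0.06 over all genes. Col1a1, the main chain of collagen I, was at 4032, 9754 and 346 CPM against 197, 10.5 and 242 CPM (log2 fold change 4.97 ± 1.53 SE, adjusted p = 0.0454). Its partner Col1a2 was at 1881, 5384 and 118 CPM against 119, 6.96 and 151 CPM and was not called (adjusted p = 0.0584). Col3a1, the chain of collagen III, was at 2096, 6336 and 101 CPM against 1554, 1144 and 1264 CPM (adjusted p = 0.477). For both uncalled genes P5 lay at or below the highest BURP-19NE tumor, so that the groups overlapped. Sparc, which binds collagen, was at 716, 1957 and 358 CPM against 106, 58.7 and 110 CPM and was higher in each BURP-16SR tumor (adjusted p = 0.00969). Thbs2, a matricellular thrombospondin, was at 304, 608 and 92.9 CPM against 12.4, 1.71 and 18.99 CPM (adjusted p = 0.0137, and 0.0623 without C80-M1). Fn1, fibronectin, did not separate the lines, with 3308, 4577 and 3476 CPM against 5238, 3124 and 1201 CPM (adjusted p = 0.730). The called member that was lower was Vcan. The count of 15 became 7, 8 and 32 without C73-M10, C74-MNT and P5, and 3, 6 and 5 without C80-M1, C80-M3 and C80-M30. The call of Col1a1 was lost without any tumor other than P5 (adjusted p from 0.0857 to 0.128) and in limma-voom.

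Enzymes that crosslink, cleave or protect the matrix were higher more evenly. Their 40 genes summed to 4198, 5449 and 3009 CPM in BURP-16SR and to 1738, 2037 and 1513 CPM in BURP-19NE, without overlap. Of 37 tested members 21 were higher and none was lower, with a median log2 fold change of 2.66. The count of 21 became 15, 15 and 27 without C73-M10, C74-MNT and P5. It became 14, 16 and 17 without C80-M1, C80-M3 and C80-M30. Plaur, the urokinase receptor, was at 289, 154 and 185 CPM against 18.8, 16.2 and 16.8 CPM (adjusted p = 0.000730), and Plau, urokinase itself, at 60.2, 74.2 and 150 CPM against 15.99, 23.01 and 9.56 CPM (adjusted p = 0.00795). Both genes were above BURP-19NE in every tumor. Among the metalloproteinases, Mmp9 was at 208, 51.0 and 131 CPM against 0.553, 0.107 and 0.647 CPM (adjusted p = 0.00126). Mmp13 was at 142, 35.9 and 37.9 CPM against 2.81, 1.77 and 1.29 CPM (adjusted p = 0.00315), and Mmp10 at 25.6, 4.87 and 20.4 CPM against 0.128, 0.0535 and 0 CPM (adjusted p = 0.00244). Mmp12, the macrophage elastase, was at 83.9, 24.6 and 88.4 CPM against 5.19, 2.73 and 1.25 CPM (adjusted p = 0.00531). These metalloproteinases were high in P5 too, unlike the collagens. Mmp3 and Mmp2 were not, with 0.435 and 6.08 CPM in P5 against 91.7 and 67.1 CPM of Mmp3 and 146 and 503 CPM of Mmp2 in C73-M10 and C74-MNT. The groups overlapped for both, and both calls were lost without any tumor other than P5 (adjusted p from 0.0557 to 0.134). Loxl2, which crosslinks collagen, was at 156, 195 and 86.6 CPM against 13.9, 14.6 and 9.61 CPM (adjusted p = 0.00135). Lox itself was at 100, 425 and 12.4 CPM against 8.08, 0.268 and 15.2 CPM and was not called (adjusted p = 0.0658). Timp1, an inhibitor of metalloproteinases, was 4.45-fold higher (adjusted p = 0.00122). Mmp14, the membrane-bound metalloproteinase, was among the 16 members that were not called.

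For 12 of the 21 higher members a promoter of 300 bases, from 250 before to 50 after the annotated start, was in the RefSeq table for GRCm38.p6. The letters TGAGTCA, read on both strands so that TGACTCA counts too, form the element known as the AP-1 site. They were found in 5 of these 12 genes (41.7%), in 0 of 11 other tested members with a promoter, and in 5.20% of 32851 promoters or 5.95% of 27025 genes in the table. The promoters of these 5 genes are shown because they hold the letters, and they were chosen after their values and letters were seen. Capitals mark the 7 letters. In Mmp10 (chr9:7502092-7502391, plus strand) they begin at position -63 relative to the start, in Mmp13 (chr9:7272264-7272563, plus strand) at -35, in Mmp3 (chr9:7445572-7445871, plus strand) at -46, in the second of the Mmp12 promoters (chr9:7347124-7347423, plus strand) at -44 and in Plaur (chr7:24462233-24462532, plus strand) at -69. The 4 metalloproteinase genes neighbor each other on chromosome 9, and a match of letters is a description and not a site of binding.
Mmp10: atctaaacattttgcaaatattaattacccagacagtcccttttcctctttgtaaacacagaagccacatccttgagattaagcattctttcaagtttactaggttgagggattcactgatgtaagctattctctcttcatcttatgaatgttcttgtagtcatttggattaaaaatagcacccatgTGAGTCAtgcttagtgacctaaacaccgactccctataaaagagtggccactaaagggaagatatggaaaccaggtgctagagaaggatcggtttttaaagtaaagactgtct
Mmp13: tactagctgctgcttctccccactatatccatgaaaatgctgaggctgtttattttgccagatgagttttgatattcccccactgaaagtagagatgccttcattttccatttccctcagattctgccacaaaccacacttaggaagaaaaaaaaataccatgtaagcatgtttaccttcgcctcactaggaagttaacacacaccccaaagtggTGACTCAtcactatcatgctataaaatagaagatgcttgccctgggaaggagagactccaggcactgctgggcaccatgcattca
Mmp3: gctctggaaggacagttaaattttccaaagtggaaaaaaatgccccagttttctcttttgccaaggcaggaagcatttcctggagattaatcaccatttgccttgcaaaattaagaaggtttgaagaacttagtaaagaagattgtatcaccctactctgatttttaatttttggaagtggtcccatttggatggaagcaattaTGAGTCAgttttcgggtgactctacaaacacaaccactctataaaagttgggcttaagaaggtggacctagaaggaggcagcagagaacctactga
Mmp12: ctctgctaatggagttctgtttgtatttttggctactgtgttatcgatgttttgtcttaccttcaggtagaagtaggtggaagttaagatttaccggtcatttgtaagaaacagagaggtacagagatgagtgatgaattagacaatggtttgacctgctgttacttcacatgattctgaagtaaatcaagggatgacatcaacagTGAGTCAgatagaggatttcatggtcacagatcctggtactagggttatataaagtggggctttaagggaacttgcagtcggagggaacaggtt
Plaur: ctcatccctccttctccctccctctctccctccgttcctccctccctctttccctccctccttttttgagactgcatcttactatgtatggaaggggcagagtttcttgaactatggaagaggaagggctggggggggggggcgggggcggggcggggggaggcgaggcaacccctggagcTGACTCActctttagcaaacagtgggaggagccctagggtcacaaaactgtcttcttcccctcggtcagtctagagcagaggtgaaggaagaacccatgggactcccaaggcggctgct

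Markers of the cells of the stroma were examined next, as sums over each list and without a test, since 3 tumors against 3 cannot give an exact permutation p below 0.1. Fibroblast markers summed to 1192, 2020 and 347 CPM in BURP-16SR and to 324, 367 and 292 CPM in BURP-19NE, so that P5 lay within the range of BURP-19NE. Of 15 tested fibroblast genes 7 were higher and none lower, among them Scara5, a ferritin receptor of fibroblasts, at 17.1, 27.9 and 2.75 CPM against 0.298, 0.214 and 0.508 CPM (adjusted p = 0.00644). Pdgfra, the receptor that defines many fibroblasts, was at 79.2, 183 and 9.63 CPM against 20.96, 21.1 and 26.6 CPM and was not called (adjusted p = 0.122). The count of 7 became 13 without P5 and 2, 3, 2, 4 and 3 without C73-M10, C74-MNT, C80-M1, C80-M3 and C80-M30. Smooth muscle and pericyte markers summed to 577, 1106 and 371 CPM against 182, 87.3 and 171 CPM, without overlap. Of the 17 members 13 were higher, with Acta2, smooth muscle actin, at 40.5, 128 and 23.3 CPM against 4.08, 2.51 and 5.08 CPM (adjusted p = 0.00711) and Actg2, its visceral form, at 6.02, 7.34 and 6.74 CPM against 0.170, 0 and 0.323 CPM (adjusted p = 0.00362). Both were above BURP-19NE in every tumor. This count fell to 8 without C80-M1 or C80-M3. Endothelial markers did not overlap either, with sums of 477, 746 and 598 CPM against 147, 108 and 149.2 CPM. Of the 16 members 15 were higher, at a median log2 fold change of 2.30, and from 10 to 15 in the fits that left out a tumor. Pecam1, the adhesion protein CD31, was at 76.8, 93.7 and 62.6 CPM against 18.6, 12.3 and 15.3 CPM (adjusted p = 0.00129), and Vwf, von Willebrand factor, at 87.7, 104 and 168 CPM against 9.78, 10.2 and 8.78 CPM (adjusted p = 0.000755). P5 was not low in these genes. The part of these cells in the differences of matrix genes was not tested.

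**Figure D3:**
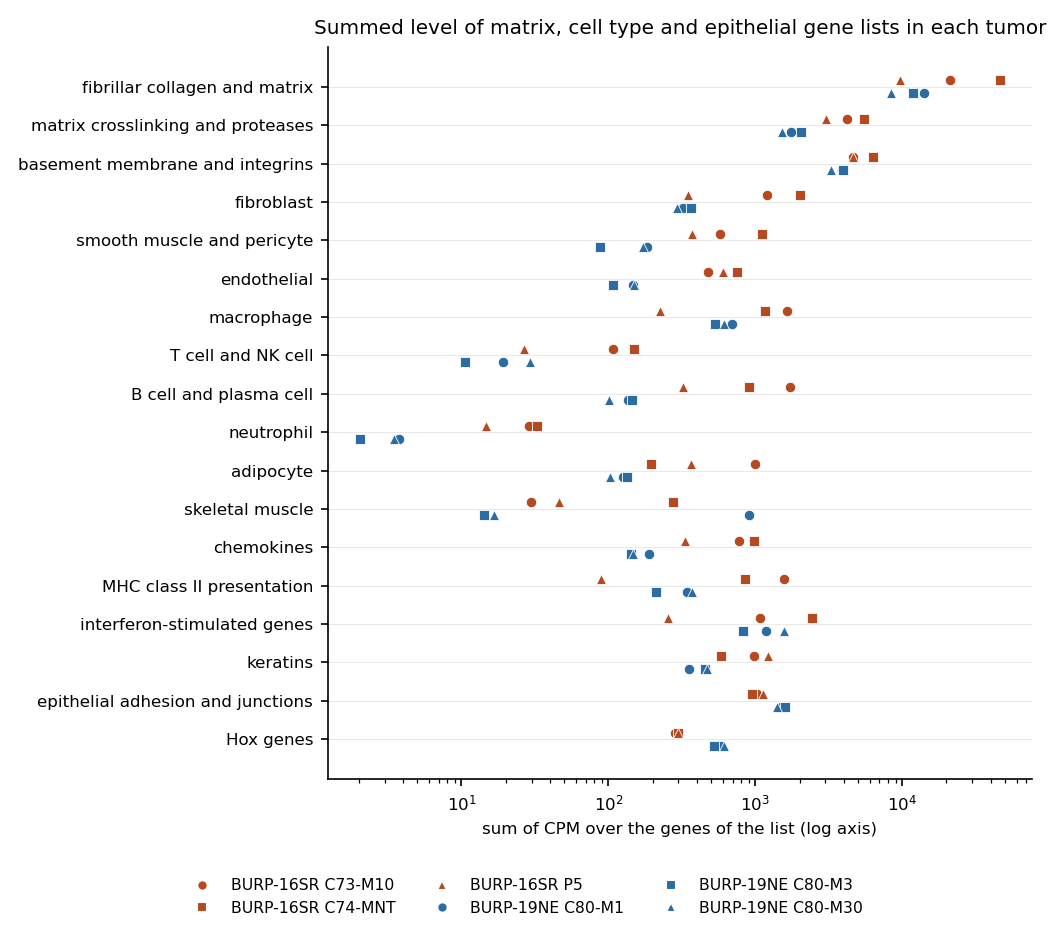
Sum of CPM over the genes of 18 lists in each tumor, on a log axis, with BURP-16SR in orange and BURP-19NE in blue and a symbol for each tumor. P5 (orange triangle) lies to the left of the other BURP-16SR tumors for fibrillar matrix, fibroblast, macrophage, lymphocyte and class II genes but not for endothelial genes, where the lines stand apart at 477 to 746 and 108 to 149.2 CPM. C80-M1 (blue circle) stands out for skeletal muscle, at 901 CPM.

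Basement membrane proteins and integrins were split. Of 34 genes, 31 were tested, 12 were higher and 3 lower, with sums of 4623, 6307 and 4603 CPM in BURP-16SR and 3905, 3976 and 3282 CPM in BURP-19NE. Itgb3, the beta chain of the vitronectin receptor, was at 51.6, 56.8 and 28.8 CPM against 4.89, 4.98 and 4.85 CPM (adjusted p = 0.00102), and Lama5, a laminin chain of epithelial basement membranes, at 28.4, 52.8 and 103 CPM against 6.76, 7.38 and 6.93 CPM (adjusted p = 0.00427). Lamb1, Col4a5 and the heparan sulfate proteoglycan Agrn were lower, 3.47-fold, 7.31-fold and 2.28-fold. The higher count fell to 7 without C80-M1, C80-M3 or C80-M30.

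Simple epithelial keratins were a clear difference between the lines. Krt8 (chromosome 15, 101996698 to 102004482), the main type II keratin of simple epithelia, was at 142, 83.8 and 170 CPM in BURP-16SR against 0, 0 and 0.277 CPM in BURP-19NE (log2 fold change 10.35 ± 0.84 SE, adjusted p = 0.000839). Its usual partner Krt18 was expressed in both lines, at 264, 143 and 332 CPM against 153, 142 and 215 CPM, and was not called (adjusted p = 0.241). Krt19 was at 472, 306 and 635 CPM against 23.3, 63.2 and 48.8 CPM (adjusted p = 0.00291), and Krt20, a keratin of urothelial umbrella cells, at 17.8, 8.28 and 17.6 CPM against 0.255, 0.0535 and 0 CPM (adjusted p = 0.00231). Thus 3 keratins were higher in all BURP-16SR tumors, and BURP-19NE expressed Krt18 with almost no Krt8. Krt7 was higher in BURP-19NE, at 143, 179 and 172 CPM against 74.7, 40.1 and 36.4 CPM (adjusted p = 0.00689), and so was Krt13 at a low level, at 1.15, 1.498 and 1.62 CPM against 0.470, 0.341 and 0.145 CPM (adjusted p = 0.0131). The call of Krt13 was lost without C80-M3 or C80-M30 (adjusted p of 0.0574 and 0.0589), and both calls were lost with all 24 tumors in 1 fit. Krt27, a keratin of the hair root, was at 6.30, 8.20 and 19.6 CPM and had no count in BURP-19NE, at least 70.7-fold. The 18 keratins summed to 981, 587 and 1225 CPM against 354, 457 and 467 CPM, and to 10082 to 29246 CPM in the 18 Ba/Sq tumors. Of 9 tested keratins 3 were higher and 2 lower.

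Other epithelial genes moved both ways. Of 40 junction and adhesion genes, 24 were tested, with 5 (20.8%) higher and 5 (20.8%) lower, beside 14.8% and 8.86% of all tested genes. Their median log2 fold change was -0.34, and their sums were 1029, 952 and 1120 CPM against 1507, 1581 and 1399 CPM. Cldn4, a tight junction claudin, was at 27.6, 10.9 and 39.3 CPM in BURP-16SR with 2 counts in BURP-19NE (ratio 426, 95% counting interval 166 to 1565), and St14, the protease matriptase, at 14.7, 12.5 and 19.8 CPM against 0.340, 0.107 and 0.508 CPM (adjusted p = 0.00111). The desmosomal plakophilin Pkp3 was lower, at 5.36, 3.16 and 1.67 CPM against 15.2, 26.5 and 19.8 CPM (adjusted p = 0.00716), as was Itga6, the integrin of hemidesmosomes, at 109, 128 and 148.3 CPM against 450, 458 and 539 CPM (adjusted p = 0.00102). The first pair was thus higher and the second lower in every BURP-16SR tumor. Cdh1, E-cadherin, was low in both, at 5.92, 7.26 and 4.201 CPM against 0.553, 1.55 and 2.03 CPM (adjusted p = 0.0226, and 0.0550 to 0.0757 without C73-M10, C74-MNT or C80-M3). The range over the 18 Ba/Sq tumors was 203 to 847 CPM. Epcam had at most 0.658 CPM in BURP-16SR and no count in BURP-19NE. Of 17 tested epithelial regulators 4 (23.5%) were higher and 3 (17.6%) lower. Klf4, a factor of terminal differentiation, was at 115, 85.8 and 241 CPM against 16.4, 14.5 and 11.6 CPM (adjusted p = 0.00242), and Pparg, a factor of luminal urothelium, at 6.30, 4.70 and 4.92 CPM against 0.383, 0.749 and 0.693 CPM (adjusted p = 0.00203). The higher count fell to 2 without C73-M10 or C80-M3, and the lower one to 1 without C73-M10, C80-M1, C80-M3 or C80-M30. Of 6 uroplakins, the plaque proteins of umbrella cells, only Upk3bl was tested, with 1.97, 0.854 and 1.74 CPM and no count in BURP-19NE (at least 9.48-fold, adjusted p = 0.00486). Upk2 and Upk3a had no count in any of the 6 tumors.

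Regulators of the mesenchymal state differed by family member. Of 31 such genes, 27 were tested, with 10 higher, 3 lower and a median log2 fold change of 0.59. Cdh2, N-cadherin, was at 38.4, 60.9 and 44.7 CPM against 0.128, 0.107 and 0.647 CPM (log2 fold change 7.30 ± 0.63 SE, adjusted p = 0.000953). The repressors Snai1 and Snai2 were at 10.1, 16.5 and 3.55 CPM against 0.468, 0.107 and 0.832 CPM (adjusted p = 0.00913), and at 4.14, 6.40 and 5.36 CPM against 0.553, 0.0535 and 0.462 CPM (adjusted p = 0.00650). For these genes no BURP-19NE tumor exceeded 0.832 CPM. The other repressors of E-cadherin were expressed in both lines. Zeb2 was lower, at 173, 223 and 128 CPM against 418, 468 and 385 CPM (adjusted p = 0.00718), and Zeb1 was not called, at 95.8, 121 and 114 CPM against 122, 134 and 119 CPM (adjusted p = 0.335). Twist1 had non-overlapping groups but a fold change below 2 (39.4, 33.8 and 36.2 CPM against 56.7, 64.4 and 63.1 CPM, adjusted p = 0.00691). The forkhead genes Foxc2 and Foxf1, both factors of mesoderm, were lower, at 0.846, 1.28 and 0.869 CPM against 26.0, 19.5 and 23.1 CPM (adjusted p = 0.000441) and at 0.658, 1.88 and 1.09 CPM against 20.8, 18.4 and 28.2 CPM (adjusted p = 0.00131). Every BURP-19NE tumor was well above the highest BURP-16SR value of these genes.

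Signals of the TGF-beta family were a further large difference. BMPs are secreted ligands of this family, and antagonists such as follistatin bind and block them. Of 49 genes, 40 were tested, with 18 higher, 2 lower and a median log2 fold change of 1.12. Bmp2 (chromosome 2, 133552159 to 133562885) was at 388, 237 and 519 CPM in BURP-16SR against 1.02, 0.535 and 0.601 CPM in BURP-19NE (log2 fold change 9.02 ± 0.47 SE, adjusted p = 0.000400). Bmp4 went the other way, at 0.564, 1.62 and 1.52 CPM against 9.99, 12.1 and 20.6 CPM (log2 fold change -3.50 ± 0.49 SE, adjusted p = 0.00335). The lines thus differed in which of these close paralogs they expressed. The BMP antagonist Grem1 was at 109, 63.3 and 322 CPM against 1.999, 1.82 and 5.17 CPM (adjusted p = 0.00349). Fst, follistatin, was at 140, 146 and 168 CPM against 12.8, 13.5 and 43.4 CPM (adjusted p = 0.00899). Both antagonists were higher in each BURP-16SR tumor, as was Bmp2. Of the target genes of BMP receptors, Id1 was at 47.7, 39.1 and 98.8 CPM against 19.8, 21.4 and 20.2 CPM (adjusted p = 0.0156), Id2 at 17.7, 25.5 and 38.8 CPM against 4.47, 2.25 and 7.35 CPM (adjusted p = 0.0101) and Id3 at 28.1, 28.9 and 43.2 CPM against 8.55, 4.28 and 13.9 CPM (adjusted p = 0.0169). Each passed the test, and each call was lost without C80-M1 (adjusted p from 0.0509 to 0.0718), that of Id1 also without C80-M3 or C80-M30. Bmpr1a, a BMP receptor, was lower, at 69.3, 87.7 and 76.3 CPM against 197, 203 and 182 CPM (adjusted p = 0.00150). Tgfb2 was 5.33-fold higher (adjusted p = 0.00912), and Ccn2, a matricellular target of TGF-beta, was at 525, 325 and 454 CPM against 13.7, 27.2 and 11.3 CPM (adjusted p = 0.00104). The count of 18 fell to 11 without C80-M1 or C80-M3, and the count of 2 rose to 5 without C74-MNT.

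Wnt ligands act through Frizzled receptors, and Dkk proteins block their co-receptors. Of 57 genes of the pathway, 38 were tested, with 10 higher and 7 lower. Among ligands, Wnt2 was at 15.5, 13.3 and 76.6 CPM against 0.128, 0 and 0.0462 CPM (adjusted p = 0.00269), and Wnt7a at 21.7, 17.4 and 4.13 CPM against 0, 0.214 and 0.0924 CPM (adjusted p = 0.00380). Wnt5a, a ligand of the noncanonical branch, was lower, at 145, 119 and 191 CPM against 430, 520 and 268 CPM (adjusted p = 0.0122). These 3 ligands separated the lines without overlap. The inhibitor Dkk2 was at 51.8, 35.3 and 94.7 CPM against 0.978, 0.321 and 1.80 CPM (adjusted p = 0.00203). Rspo2, an amplifier of Wnt signals, was high mainly in P5, at 3.85, 3.33 and 53.4 CPM against 0.0851, 0.107 and 0.231 CPM (adjusted p = 0.0127), and lost its call without C80-M1 or C80-M3 (adjusted p of 0.0597 and 0.0617). The receptors Fzd6 and Fzd3 were lower, at 6.77, 13.0 and 7.24 CPM against 73.5, 73.7 and 66.1 CPM (adjusted p = 0.00114) and at 16.4, 13.6 and 10.6 CPM against 53.5, 46.98 and 47.03 CPM (adjusted p = 0.00154). Ligands were thus called in both directions and these 2 receptors in one. The count of 10 rose to 16 without P5.

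In the Notch and Hedgehog pathways, 14 of 30 tested genes were higher and 3 lower, with a median log2 fold change of 1.17. The Notch ligand Jag1 was at 306, 282 and 536 CPM against 75.9, 62.8 and 54.6 CPM (adjusted p = 0.00197), the receptor Notch4, best known from endothelium, at 41.5, 49.8 and 45.4 CPM against 7.31, 6.53 and 7.58 CPM (adjusted p = 0.000436), and the target and feedback inhibitor Nrarp at 33.6, 43.4 and 33.8 CPM against 3.61, 2.68 and 3.28 CPM (adjusted p = 0.000441). All were higher in each BURP-16SR tumor. Notch4 and endothelial markers were higher in the same tumors, and the part of endothelial cells in the result was not tested. Of the Hedgehog genes, the ligand Ihh was at 6.39, 1.54 and 3.84 CPM against 0.0425, 0.268 and 0.0462 CPM (adjusted p = 0.00630), and the target Gli1 at 2.63, 2.65 and 1.01 CPM against 0.170, 0.0535 and 0.0924 CPM (adjusted p = 0.00369). The receptor component Smo was lower, at 62.9, 66.4 and 56.7 CPM against 132, 175 and 140 CPM (adjusted p = 0.00220), and so was the co-receptor Cdon, while its relative Boc was 21.2-fold higher.

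FGF signals and receptor tyrosine kinases were tested in 21 and 32 genes, with 8 higher and 4 lower, and 9 higher and 5 lower. Etv4, a target of FGF and ERK signals, was at 37.3, 38.3 and 45.1 CPM against 0.723, 1.18 and 2.54 CPM (adjusted p = 0.00132), while its paralog Etv1 was lower, at 11.1, 13.8 and 15.3 CPM against 59.4, 63.0 and 73.9 CPM (adjusted p = 0.000789). The feedback inhibitor Spry2 was at 181, 144 and 200 CPM against 54.3, 52.1 and 49.6 CPM (adjusted p = 0.00104). The paralogs Etv4 and Etv1 again differed in direction. Pdgfc, a ligand of PDGF receptors, was lower, at 9.77, 10.2 and 6.52 CPM against 57.7, 64.4 and 45.0 CPM (adjusted p = 0.00104). Fgfr3, a receptor often altered in bladder cancer, was low in both lines, at 0.376, 1.28 and 0.435 CPM against 3.83, 2.84 and 3.56 CPM (adjusted p = 0.0156, and 0.0562 and 0.0626 without C80-M1 and C80-M30). Ddr2, a collagen receptor, was also higher (adjusted p = 0.0107, and 0.0542 without C80-M1). Mst1r, the receptor RON, was at 4.89, 7.0003 and 2.10 CPM against 0.128, 0.0535 and 0.185 CPM (adjusted p = 0.00249). Ephb6, a kinase-dead Eph receptor, was at 16.6, 11.4 and 10.8 CPM against 116, 87.0 and 77.6 CPM (adjusted p = 0.000983). Egfr was at 108, 144 and 175 CPM against 156, 150 and 145 CPM and was not called (adjusted p = 0.770). The receptors thus held members that passed the test in each direction and others that did not. Of the FGF genes, the count of 8 fell to 5 without C73-M10 or C80-M3, and the count of 4 to 2 without C80-M1. Of the kinases, the count of 9 fell to 4 and 5 without C80-M1 and C80-M30, and the count of 5 to 3, 3 and 2 without C73-M10, C80-M1 and C80-M3.

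**Figure D4:**
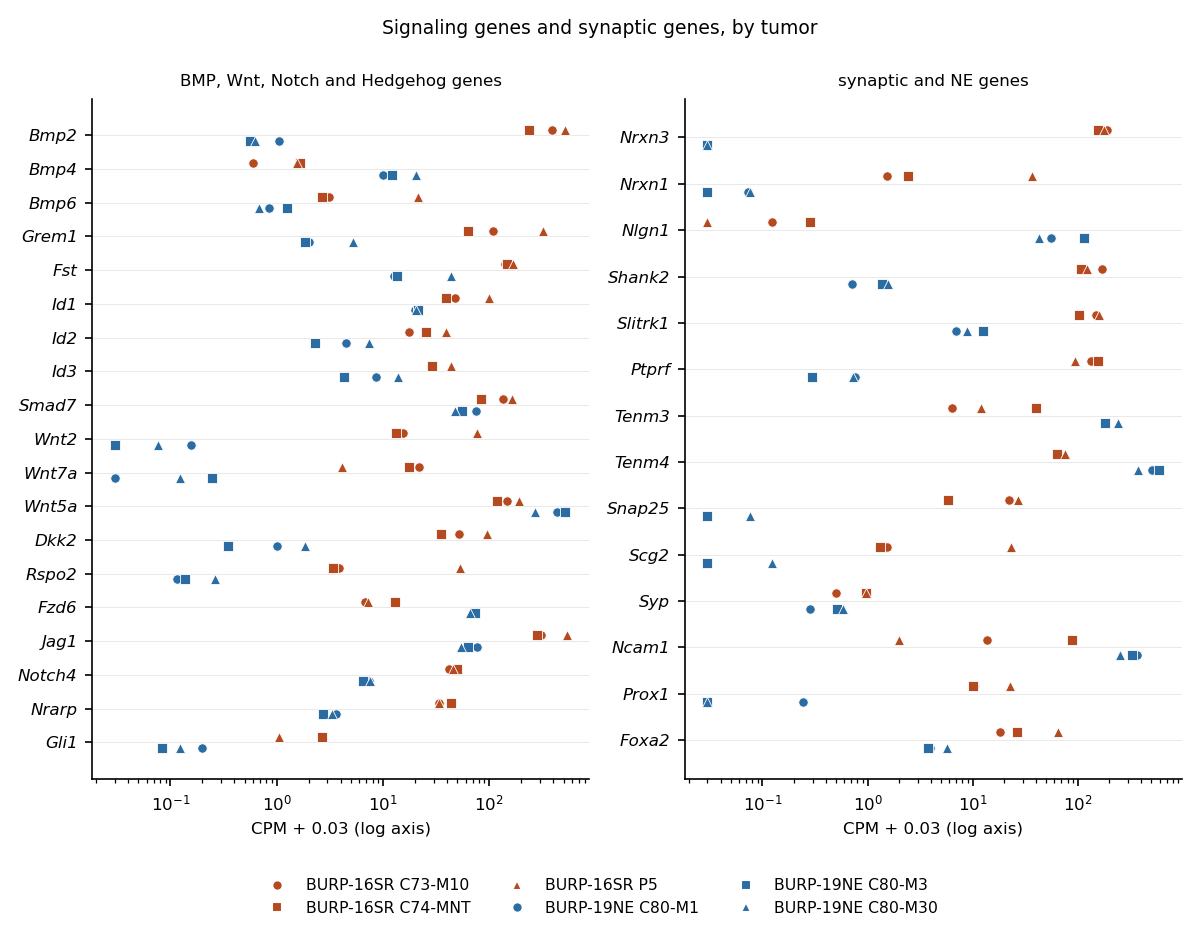
Expression of genes of the BMP, Wnt, Notch and Hedgehog pathways (left) and of synaptic and NE genes (right), in CPM plus 0.03 on a log axis, with 1 point per tumor, BURP-16SR in orange and BURP-19NE in blue. Bmp2 is at 237 to 519 CPM in BURP-16SR and 0.535 to 1.02 CPM in BURP-19NE while Bmp4 is turned, and Nrxn3 and Nlgn1 lie at opposite sides.

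Synaptic adhesion molecules, which join nerve cells across the synapse, differed strongly in both directions, and the sums of their 62 genes overlapped (1658 to 1910 CPM against 1895 to 2375 CPM). Of 36 tested members 12 were higher and 8 lower. On the presynaptic side, Nrxn3 was found only in BURP-16SR, as given above, and Ptprf, the receptor phosphatase LAR, was at 133, 156 and 93.1 CPM against 0.723, 0.268 and 0.693 CPM (adjusted p = 0.000400). Ptprd of the same family was lower, at 3.48, 20.2 and 5.36 CPM against 55.4, 62.9 and 70.2 CPM (adjusted p = 0.0198), and lost its call without C80-M1, C80-M3 or C80-M30 (adjusted p from 0.0564 to 0.0604). On the postsynaptic side, the scaffold Shank2 was at 171, 107 and 123 CPM against 0.680, 1.34 and 1.52 CPM (adjusted p = 0.000430) and Slitrk1 at 150, 101.8 and 159 CPM against 6.89, 12.6 and 8.82 CPM (adjusted p = 0.000781). The neurexin Nrxn3 and the neuroligin Nlgn1, which bind each other, were thus found in different lines. Of the teneurins, adhesion proteins of developing circuits, Tenm4 was lower, at 65.5, 62.9 and 76.3 CPM against 508, 598 and 373 CPM (adjusted p = 0.000736), and Tenm3 at 6.39, 40.0 and 12.1 CPM against 180, 183 and 243 CPM (adjusted p = 0.0107). The count of 12 fell to 7 without C80-M1 and the count of 8 to 5 without C80-M3.

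Voltage-gated channels carry currents of excitable cells, and their list here also holds inward rectifier, leak and other potassium channels. Of these 72 subunits, 41 were tested, with 18 higher, 10 lower and a median log2 fold change of 1.71. Scn9a, a sodium channel of sensory neurons, was at 46.7, 37.8 and 101 CPM against 0.0425, 0.321 and 0.462 CPM (adjusted p = 0.00120). Kcnj12, an inward rectifier, was at 18.2, 4.18 and 26.7 CPM against 0.213, 0 and 0.0462 CPM (adjusted p = 0.00394). Kcnc2, a channel of fast-spiking neurons, was lower, at 0.188, 0.341 and 0.0724 CPM against 15.7, 17.8 and 10.4 CPM (adjusted p = 0.000881), and Kcnk1, a leak channel, at 0, 0.512 and 0 CPM against 17.6, 13.9 and 5.91 CPM (adjusted p = 0.00711). Each of these channels was near 0 in one line. The count of 18 fell to 9 without C80-M1 and to 10 without C80-M30. Of 59 axon guidance genes 48 were tested, with 13 higher and 7 lower. The secreted semaphorin Sema3b was at 16.3, 14.5 and 16.6 CPM against 0.595, 1.34 and 1.76 CPM (adjusted p = 0.00186), and Robo1, a receptor of Slit proteins, at 17.9, 41.2 and 16.6 CPM against 2.21, 2.41 and 2.31 CPM (adjusted p = 0.00220). Sema5a, a transmembrane semaphorin, was lower, at 9.77, 30.6 and 0.652 CPM against 274, 315 and 262 CPM (adjusted p = 0.0232, and 0.0605 to 0.0853 without C73-M10, C80-M1, C80-M3 or C80-M30). The lower count fell to 4, 3, 3 and 4 without these same tumors.

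The Hox genes, which record position along the body axis, passed the test in 1 direction. Of 39 genes 26 were tested, and 10 were lower in BURP-16SR and none higher by edgeR, although 3 were higher without P5, 2 without a filter on counts, and 1 without C74-MNT, C80-M3 or C80-M30. Their sums were 284, 300 and 298 CPM against 583, 521 and 617 CPM, without overlap. The lower genes were of clusters A and B, namely Hoxa2, Hoxa9, Hoxa13, Hoxb3, Hoxb4, Hoxb5, Hoxb6, Hoxb8, Hoxb9 and Hoxb13. Hoxb9 was at 1.03, 1.71 and 1.09 CPM against 33.9, 26.9 and 43.1 CPM (log2 fold change -4.75 ± 0.31 SE, adjusted p = 0.000520), Hoxb8 at 9.59, 6.06 and 6.81 CPM against 60.1, 54.9 and 67.4 CPM (adjusted p = 0.000678), and Hoxb13, a gene of the caudal urogenital tract, at 1.32, 1.54 and 1.23 CPM against 9.61, 11.7 and 13.1 CPM (adjusted p = 0.000914). The spread within each line was small for these genes. Of cluster C, Hoxc8 was at 4.04, 10.5 and 0.507 CPM against 0.383, 0 and 0.370 CPM and was too low to be tested.

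Other developmental transcription factors were called equally often in each direction, 11 higher and 11 lower of 46 tested. Tbx18, a factor of the urogenital mesenchyme, was at 9.30, 15.0 and 12.3 CPM against 0.298, 0.0535 and 0.508 CPM (adjusted p = 0.00209), and Zic5, a zinc finger gene of the neural crest, at 5.08, 6.32 and 6.16 CPM against 0.0425, 0.161 and 0.0462 CPM (adjusted p = 0.000876). In BURP-19NE, Irx1, an Iroquois homeobox gene, was at 34.2, 34.99 and 36.7 CPM against 0.940, 0.598 and 0 CPM (adjusted p = 0.00241), and Six4 and Eya1, partners in a network of organ buds, were 8.51-fold and 9.78-fold above BURP-16SR (adjusted p of 0.00209 and 0.00353). Each line thus expressed developmental factors that were low in the other. The lower count fell to 7 without C80-M1, and the higher one rose to 18 without a filter on counts.

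Imprinted and oncofetal genes held 10 higher and 8 lower members of 28 tested. Igf2, the fetal growth factor, was at 0.752, 19.7 and 0.869 CPM in BURP-16SR against 317, 473 and 408 CPM (log2 fold change -5.81 ± 1.29 SE, adjusted p = 0.0158, and 0.0512 without C80-M3). Igf2r, which clears Igf2, was at 95.2, 94.0 and 104 CPM against 647, 621 and 314 CPM (adjusted p = 0.00223), and Peg10, a gene of the placenta, at 32.0, 31.3 and 64.4 CPM against 824, 411 and 633 CPM (adjusted p = 0.00159). The ligand and its receptor were both higher in BURP-19NE. Dlk1 was at 24.2, 5.63 and 41.2 CPM against 0.340, 0.161 and 0.370 CPM (adjusted p = 0.00308), and Cdkn1c, an imprinted cell cycle inhibitor, at 18.6, 21.2 and 4.85 CPM against 0.553, 0.535 and 0.416 CPM (adjusted p = 0.00268). Within the imprinted cluster that holds both, Magel2 was lower in BURP-16SR, as given above, while Ndn was higher, at 4.70, 10.6 and 2.75 CPM against 0.468, 0 and 0.231 CPM (adjusted p = 0.0130, and 0.0633 without C80-M30). The count of 10 fell to 4, 4 and 3 without C80-M1, C80-M3 and C80-M30. Of 49 germline genes 9 were tested, with 1 higher and 3 lower. Tdrd12, of the piRNA pathway, was at 0.188, 0.0854 and 0.435 CPM against 6.93, 7.06 and 5.27 CPM (adjusted p = 0.00176), and its relative Tdrd9 was at 6.02, 0.939 and 9.34 CPM with no count in BURP-19NE (at least 33.8-fold, adjusted p = 0.0130).

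Immune cell markers depended on P5. Macrophage markers summed to 1634, 1168 and 225 CPM in BURP-16SR and to 696, 528 and 610 CPM in BURP-19NE. P5 lay below and the other 2 tumors above every BURP-19NE tumor. No macrophage gene of 16 was called by edgeR, while 8 were higher and 1 was lower without P5 and 1 was lower without a filter on counts. Csf1r, the receptor of their growth factor, was at 123, 105.4 and 21.3 CPM against 40.0, 28.9 and 39.1 CPM (adjusted p = 0.151). T cell and NK cell markers summed to 107, 150 and 26.7 CPM against 19.05, 10.5 and 29.5 CPM, with 2 of 16 tested genes higher and 13 without P5. The count was 1 in each fit without another tumor. Cd3e, of the T cell receptor complex, was at 4.32, 7.09 and 0 CPM against 1.62, 0.0535 and 1.48 CPM (adjusted p = 0.357). For T cells too, P5 was within or below BURP-19NE. Trbc1, a constant segment of the T cell receptor, was an exception, at 17.9, 16.1 and 19.9 CPM against 0.425, 0.161 and 1.43 CPM (adjusted p = 0.00421), with P5 the highest. B cell and plasma cell markers summed to 1722, 903 and 324 CPM against 135, 144 and 101 CPM. Ighm, the heavy chain of IgM, was at 533, 216 and 1.01 CPM against 3.36, 2.51 and 6.01 CPM (adjusted p = 0.0403), and its call was lost without any tumor other than P5 (adjusted p from 0.0619 to 0.135). Blnk, an adapter of B cells and macrophages, was at 87.6, 64.5 and 111 CPM against 2.13, 1.77 and 2.49 CPM (adjusted p = 0.000400). It was highest in P5, in which Ighm was at 1.01 CPM and Igkc, a light chain, at 0.145 CPM. Of 9 tested genes of the list 6 were higher, 9 without P5, and 2, 3, 2, 3 and 2 without C73-M10, C74-MNT, C80-M1, C80-M3 and C80-M30.

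Antigen presentation and interferon genes were not called as groups. Class II genes summed to 1562, 847 and 89.7 CPM against 342, 210 and 371 CPM, and none of 9 tested was called by edgeR, beside 8 without P5 and 2 without a filter on counts. H2-Aa was at 229, 115 and 1.59 CPM against 48.2, 19.3 and 54.7 CPM (adjusted p = 0.393). Of 25 class I genes 1 was higher, the nonclassical H2-M3, a call that was lost without any tumor other than C74-MNT and P5 (adjusted p from 0.0635 to 0.0784), while 4 were higher without P5 and 2 lower without C74-MNT. Of 47 tested interferon-stimulated genes 1 was higher and 2 were lower, with sums of 1081, 2447 and 254 CPM against 1175, 831 and 1559 CPM. Isg20, an exonuclease, was 4.79-fold higher (adjusted p = 0.00262), and Ifi27 was 3.86-fold lower (adjusted p = 0.00957). C74-MNT was the highest and P5 the lowest tumor for the interferon list. Without P5 7 were higher, without C74-MNT 8 were lower, and the count of 2 fell to 1 without C73-M10, C80-M1, C80-M3 or C80-M30.

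Chemokines, which draw in leukocytes, were higher in all 3 BURP-16SR tumors by sum, at 770, 985 and 334 CPM against 190, 142 and 147.7 CPM. Of 27 tested members 15 were higher and 1 lower, with a median log2 fold change of 3.15. Ligands of the neutrophil receptor Cxcr2 were among them. Cxcl3 was at 20.02, 4.70 and 8.11 CPM with 1 count in BURP-19NE (ratio 335, 95% counting interval 92.2 to 2780), Cxcl2 at 23.9, 11.2 and 4.56 CPM against 0.128, 0.214 and 0.0924 CPM (adjusted p = 0.00231) and Cxcl1 at 3.95, 4.10 and 9.63 CPM against 0.510, 0.161 and 0.370 CPM (adjusted p = 0.00383). Each was above BURP-19NE in P5 too. Markers of neutrophils summed to 28.9, 33.0 and 14.8 CPM against 3.74, 2.03 and 3.47 CPM, and all 4 tested members were higher, such as the receptor Trem1 at 6.96, 5.89 and 2.82 CPM against 0.0851, 0.107 and 0.323 CPM (adjusted p = 0.00269). This count fell to 2 without C73-M10, C80-M3 or C80-M30, and Mpo and Elane had no count in any of the 6 tumors. The chemokine Ccl2 was not called, at 3.10, 7.68 and 3.62 CPM against 1.79, 1.66 and 3.93 CPM (adjusted p = 0.184). The count of 15 fell to 9 without C80-M1 or C80-M3, and that of 1 to 0 without C73-M10, C80-M1, C80-M3 or C80-M30.

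Of 30 tested checkpoint molecules and targets of antibody drugs 8 were higher and 2 lower. Havcr2, the checkpoint TIM-3, was at 116, 117 and 242 CPM against 2.81, 4.92 and 2.59 CPM (log2 fold change 5.53 ± 0.45 SE, adjusted p = 0.000863). Tnfrsf9, the costimulatory receptor 4-1BB, was at 46.1, 29.7 and 41.6 CPM against 1.96, 2.35 and 2.13 CPM (adjusted p = 0.000430). Vtcn1, the inhibitory ligand B7-H4, was at 12.9, 10.5 and 22.7 CPM with 2 counts in BURP-19NE (ratio 253, 95% counting interval 98.4 to 933). P5, the BURP-16SR tumor lowest in T cell and macrophage markers, lay within or above the range of the other BURP-16SR tumors for these genes. Pdcd1lg2, the ligand PD-L2, was at 13.2, 10.6 and 4.56 CPM against 0.128, 0.161 and 0.416 CPM (adjusted p = 0.00225), whereas Cd274, PD-L1, was at 36.8, 40.1 and 20.6 CPM against 19.7, 12.6 and 24.7 CPM and was not called (adjusted p = 0.120). Erbb2, the receptor HER2, was 2.02-fold lower (adjusted p = 0.00362) and its fold change fell below 2 without C73-M10 or C80-M3. The count of 8 rose to 13 without P5, and that of 2 became 1, 4 and 1 without C73-M10, C74-MNT and C80-M3. Dll3, a target in NE tumors, had no count in BURP-16SR and at most 0.0535 CPM in BURP-19NE.

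Targets of hypoxia and glycolytic enzymes were higher where called. Of 38 tested genes 13 were higher and none lower, with a median log2 fold change of 0.56, and their sums overlapped (6651 to 10300 CPM against 5136 to 9056 CPM). Slc16a3, the lactate exporter, was at 62.5, 58.0 and 106 CPM against 2.76, 4.65 and 2.45 CPM (adjusted p = 0.000914), Angptl4, a lipase inhibitor, at 155, 77.4 and 142 CPM against 7.61, 6.79 and 5.54 CPM (adjusted p = 0.000736), and Stc2, the secreted protein stanniocalcin, at 23.3, 22.8 and 49.8 CPM against 0.128, 0 and 0.231 CPM (adjusted p = 0.00111). The groups were far apart for each. Vegfa was at 245, 229 and 363 CPM against 190, 211 and 135 CPM and was not called (adjusted p = 0.0863), and neither was Slc2a1, the glucose transporter (adjusted p = 0.237). The count of 13 fell to 8 without C80-M1 or C80-M30.

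Proliferation genes differed little. Of 44 genes of the cell cycle 3 were higher, 1 was lower and 40 were not called, with a median log2 fold change of -0.22. Mki67, the proliferation marker, was at 196, 392 and 257 CPM against 283, 207 and 490 CPM (adjusted p = 0.692). E2f1, a driver of S phase, was at 38.4, 40.4 and 55.1 CPM against 10.7, 12.6 and 14.8 CPM (adjusted p = 0.00207). The other higher genes were Mcm4 and Ccne1, and the lower one was Ccnb1, cyclin B1, whose call was lost without C73-M10, P5, C80-M1 or C80-M30 (adjusted p from 0.0620 to 0.120). The count of 1 became 0, 2, 0 and 3 without C73-M10, C74-MNT, C80-M1 and C80-M3. Of 41 tested genes around Rb, p53 and the D cyclins 7 were higher and 9 lower. Ccnd1, cyclin D1, was at 886, 809 and 756 CPM against 231, 268 and 345 CPM (adjusted p = 0.00244), while Rb1, which it inactivates, was at 24.1, 21.5 and 15.7 CPM against 49.5, 42.5 and 52.0 CPM (adjusted p = 0.00537). The inhibitor Cdkn1b was at 63.0, 60.7 and 47.3 CPM against 133, 132 and 132 CPM (adjusted p = 0.00213), and Cdkn2a, the gene of p16 and p19Arf, at 34.9, 27.6 and 61.3 CPM against 123, 87.7 and 107 CPM (adjusted p = 0.0180, and 0.0574 to 0.0703 without C73-M10, C80-M1 or C80-M30). BURP-19NE thus had the higher Rb1 and Cdkn2a level in every tumor. Trp53 was at 66.8, 74.6 and 65.8 CPM against 80.1, 74.05 and 83.1 CPM (adjusted p = 0.246). The count of 7 fell to 4 without C80-M1, C80-M3 or C80-M30.

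**Figure D5:**
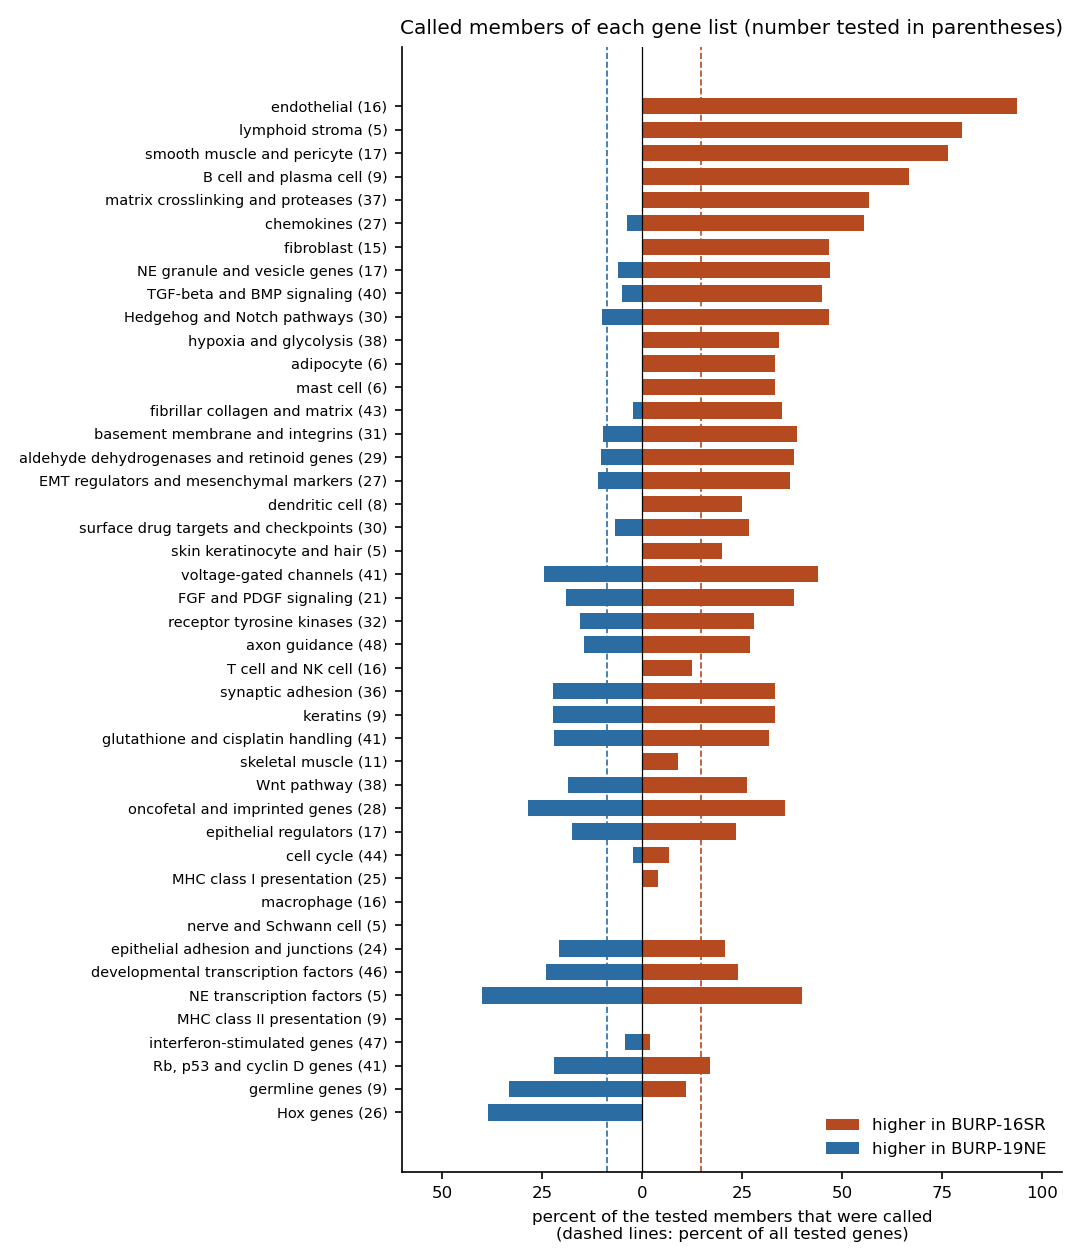
Percent of the tested members of each gene list with at least 5 tested genes that were higher in BURP-16SR (orange, to the right) or in BURP-19NE (blue, to the left), with the number tested in parentheses and lists ordered by the difference. Dashed lines mark the 14.8% and 8.86% of all tested genes. Among the lists drawn, endothelial genes (15 of 16) lie at one end and Hox genes (10 of 26 higher in BURP-19NE) at the other.

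Called genes were also placed along the genome. Runs of 50 neighboring tested genes were compared by their median log2 fold change, without a test. The highest median, 2.01, was on chromosome 18 from 36793876 to 38212053, with 29 genes higher and 4 lower. It held the clustered protocadherins, adhesion proteins that give neurons their identity. All 22 tested genes of the gamma cluster (37661793 to 37841873) were higher, with a median of 2.79, whereas of 16 genes of the beta cluster beside it none was higher by edgeR and 3 were lower. Pcdhgc5 was at 33.4, 30.2 and 36.7 CPM against 2.93, 1.98 and 2.22 CPM (adjusted p = 0.000436). Genes of the gamma cluster share their last exons, so that reads may be divided among them and their calls are not separate. In the same run Arap3, a regulator of small GTPases, was at 300, 280 and 280 CPM against 23.4, 59.7 and 22.9 CPM (adjusted p = 0.00308). A run on chromosome 2 from 174465067 to 180474867 had 25 higher and no lower genes by edgeR, with a median of 1.69. Of its 34 genes named Zfp or Gm, many of them zinc finger copies, 19 were higher.

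Shorter runs of 25 genes were examined in the same way. The highest, on chromosome 5 from 24802823 to 27501438, had a median of 7.94 with 18 higher genes. Of these, 17 lay from 25919632 to 27501438 and had a median of 8.31, among them Speer4a, of a gene family transcribed in the testis, at 55.7, 50.7 and 89.1 CPM against 0.936, 0.321 and 3.70 CPM (adjusted p = 0.00504). The pseudogene Gm5067 was at 225, 139 and 266 CPM against 0.0851, 0.0535 and 0.0462 CPM (adjusted p = 0.000214), and at most 0.0445 CPM in the 18 Ba/Sq tumors. It led the noncoding genes that were higher, followed by Gm48692 and Gm5055, at least 104-fold and 79.2-fold. BURP-16SR thus expressed a block of neighboring genes that were low in the other line. The copies are near-identical, so that the share of each in the reads is uncertain.

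The lowest run of 50 genes was on chromosome 5 from 130872082 to 135078266, with a median of -1.66, 5 genes higher and 26 lower. Auts2 (131437333 to 132543344, minus strand), a neuronal gene of chromatin regulation, was at 7.05, 23.2 and 1.01 CPM in BURP-16SR against 362, 429 and 332 CPM (log2 fold change -5.17 ± 0.99 SE, adjusted p = 0.00975). Within its span 23 other annotated genes, none protein-coding and 22 on the same strand, were all lower with a median of -5.92. Without them the median of the run was 0.15. Reads from introns of Auts2 and from these genes cannot be told apart. Other noncoding genes with large changes downwards were Gm26735, Gm43485 and Gm45768, with no count in BURP-16SR and at least 47.1-fold, 24.3-fold and 20.8-fold higher in BURP-19NE, the first of which was not called with all 24 tumors in 1 fit. By chromosome, 21.3% of the tested genes of chromosome 16 were higher and 1.29% lower, with a median of 0.60. Chromosomes 3 and 6 leaned the other way, with 7.28% higher and 17.8% lower and with 10.6% higher and 19.2% lower. In runs of 100 genes the highest median was 0.85, on chromosome 2, and the lowest -0.82, on chromosome 3.

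The donors and hosts of both lines were male, and whether the tumor cells kept the Y chromosome was not tested. Of its genes, Ddx3y was at 15.2, 19.8 and 4.35 CPM against 3.44, 2.14 and 4.204 CPM. It was called, as was Eif2s3y (adjusted p of 0.0373 and 0.0290), and both calls were lost without any tumor other than P5. Kdm5d was at 15.2, 20.1 and 1.88 CPM against 2.08, 0.910 and 2.73 CPM and Uty at 7.90, 13.1 and 1.67 CPM against 1.999, 1.77 and 2.26 CPM, and neither was called (adjusted p of 0.0505 and 0.0706). P5 was near BURP-19NE for these genes, as it was for fibroblast and immune markers, and their part in the result was not tested. Without P5 all 4 tested genes were called.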

How the data were processed

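The authors made ribosomal RNA-depleted paired-end libraries and deposited RSEM estimated counts per gene for GENCODE M16. The submitters' processing notes name CASAVA 1.8.2, STAR 2.6.0a, RSEM 1.3.1 and GRCm38. Of 53465 genes, 99.8% of the identifiers were matched to the annotation, and estimated counts, of which 12.5% were not whole, were rounded. The 6 tumors were grouped by the line in their labels and tested with edgeR 4.0.16 in R 4.3.3 (filterByExpr, TMM, glmQLFit and glmQLFTest, Benjamini-Hochberg adjustment over 17556 genes). Calls required an adjusted p below 0.05 with a change of more than 1 on the log2 scale in either direction. Fold changes without an SE are ratios of mean CPM, and bounds use a floor of 3 counts per library. Depth is given with the samples, and intervals cover counting error only.

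The text names, per direction, the 12 largest and 6 most abundant protein-coding genes, 3 noncoding genes and up to 4 genes per list, with 5 genes per genome run, at a mean of at least 5 CPM where the rule asks for one. The largest, the most abundant and the noncoding genes were taken only from called genes without overlap between the lines. Genes that define a list by role, and the few others named, were chosen after their values were seen. The members and the 47 gene lists were chosen with earlier results of these data known. Some listed genes are not reported here by name. Sequences are from RefSeq (GRCm38.p6).

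On simulated counts with 200 genes changed 4-fold (17252 genes), edgeR found 75.5% with 2.58% false calls. Of 2-fold changes (17179 genes) it found 2.5% with 28.6% false calls. Alternatives were DESeq2 1.42.0, its size factors, limma 3.58.1 (voom), other filters, all 24 tumors in 1 fit, protein-coding genes only and each tumor left out. Leaving out tumors for the gene lists was added after the data were seen.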

Additional observations from a re-analysis of the deposited data

How the results depend on the processing

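The counts of 2592 higher and 1555 lower genes became 2533 and 1633 with DESeq2 size factors, 2900 and 1721 by DESeq2, 2347 and 1627 by limma-voom, 3058 and 1652 without a filter on counts, 1753 and 1075 when each tumor had to hold 10 counts or more, 3247 and 1928 with all 24 tumors in 1 fit, and 2031 and 1126 for protein-coding genes. Leaving out 1 tumor gave 1759 to 3603 higher and 1038 to 1942 lower genes. No gene called with all 6 tumors was called in the opposite direction under these alternatives, and 59.1% to 65.0% of the calls were higher. Without the filter the median log2 fold change of all genes was 0.217. Of the fold changes of named genes, 8 changed sign, all of genes that were not called. These were the log2 fold change of C1qa (-0.07 by limma-voom, and -0.06 to 1.14 with 1 tumor left out, the lowest without C73-M10), the log2 fold change of Col3a1 (-0.21 by limma-voom, and -0.27 to 1.63, the lowest without C74-MNT), the log2 fold change of H2-Aa (-0.22 by limma-voom), the log2 fold change of Egfr (-0.30 to 0.06, the highest without C73-M10), the log2 fold change of Fn1 (-0.16 to 0.79, the lowest without C80-M30) and the log2 fold change of Mki67 (-0.53 to 0.18, the highest without C80-M30). The cause was not tested. By mean log2 CPM in place of the log2 sum, the skeletal muscle markers, line difference, changed from 0.24 to -1.09 and the nerve and Schwann cell markers, line difference, from -0.07 to 0.42. No paired analysis was possible because the labels of the 2 lines share no replicate number. In the simulated counts, made with 1 common dispersion of 0.129 and scored on the adjusted p alone, edgeR found 2.5% of the genes changed 2-fold. Depth was not varied there, and the share found among real 2-fold differences is not known.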

Other observations

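Genes of glutathione and cisplatin handling were called in both directions, 13 higher and 9 lower of 41 tested. Gstp1, a glutathione transferase, was at 51.6, 36.9 and 51.4 CPM in BURP-16SR against 158, 201 and 136 CPM in BURP-19NE (adjusted p = 0.00197), and Gclm, a subunit of the enzyme that starts glutathione synthesis, at 13.9, 22.4 and 17.5 CPM against 40.3, 40.7 and 53.3 CPM (adjusted p = 0.00648). Both were lower in every BURP-16SR tumor. The metallothionein Mt3 was at 7.99, 3.41 and 13.8 CPM against 0.0851, 0.214 and 0.323 CPM (adjusted p = 0.00306). Slc31a1, a copper transporter that also carries cisplatin, had a fold change below 2 (34.6, 37.5 and 42.4 CPM against 24.8, 22.6 and 25.9 CPM, adjusted p = 0.0168). The count of 13 fell to 8 without C73-M10, C80-M1 or C80-M3 and to 6 without C80-M30, and that of 9 to 4, 5 and 5 without C80-M1, C80-M3 and C80-M30.

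Of 29 tested aldehyde dehydrogenases and retinoid genes 11 were higher and 3 lower. Cyp26b1, which degrades retinoic acid, was at 23.5, 22.6 and 14.3 CPM against 0.638, 0.642 and 0.785 CPM (adjusted p = 0.000461), and Aldh3a1 was lower, at 4.98, 3.24 and 4.201 CPM against 17.4, 23.3 and 35.6 CPM (adjusted p = 0.00250). Neither gene overlapped between the lines. The count of 11 fell to 4, 7 and 6 without C80-M1, C80-M3 and C80-M30, and that of 3 rose to 5 without P5.

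Adipocyte markers summed to 1000, 196 and 363 CPM against 126, 134 and 103 CPM, with 2 of 6 tested genes higher, 6 without a filter on counts, and Fabp4, a fatty acid carrier of adipocytes and vessels, at 72.3, 38.9 and 19.6 CPM against 3.57, 2.30 and 2.40 CPM (adjusted p = 0.00280). Adipoq, Plin1 and Cfd of this list, too low to be tested, had no count in P5. They were at 10.8, 14.6 and 52.1 CPM in C73-M10 and at 2.05, 2.73 and 7.77 CPM in C74-MNT. The sum of P5 thus came from other members. Mast cell markers summed to 38.1, 51.3 and 27.6 CPM against 27.1, 3.26 and 36.7 CPM, and nerve and Schwann cell markers to 56.1, 64.1 and 46.1 CPM against 54.1, 54.9 and 64.2 CPM. The groups overlapped for the last 2 lists. Skin and hair markers summed to 23.6, 17.2 and 24.6 CPM against 15.0, 12.4 and 11.9 CPM, below the 2998 to 6855 CPM of the 18 Ba/Sq tumors. Dendritic cell markers overlapped, at 134 to 296 CPM against 112 to 166 CPM, and lymphoid stroma markers did not, at 209 to 490 CPM against 37.6 to 62.9 CPM. The highest lymphoid stroma sum was in P5, where Grem1, a member of that list, was at 322 CPM. The chemokines Ccl19 and Ccl21a of the same list had no count in P5, and Cxcl13 was at 0.0724 CPM there. Prox1, also of that list, was highest in P5, at 22.6 CPM. The part of lymphoid stroma in the sum of P5 was not tested.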
